A study of Mus musculus with 2 samples.

Results

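Cadherins and catenins of adherens junctions were followed in muscle stem cells (MuSCs, the resident Pax7-expressing stem cells of skeletal muscle) of male C57BL/6 mice. The 8 genes were taken by symbol: the cadherin genes Cdh2, Cdh4, Cdh11, Cdh13 and Cdh15 and the catenin genes Ctnna1, Ctnnb1 and Ctnnd1, of 24532 gene IDs in the deposited table. All 8 had rows and all 8 passed the floor of 10 counts in the higher library. There was 1 RNA-seq library of wild-type (WT) cells and 1 of double-knockout (dKO) cells. Cells of the dKO genotype are Esr2-/-, so both copies of the gene of estrogen receptor beta are lost. They also carry Pax7-CreER, a Cre that tamoxifen switches on in Pax7-expressing cells, and a gene that Cre can delete, which is not reported here. The labels give neither the number of mice behind a library nor whether the WT mice carried Cre. The tamoxifen course (20 mg/mL by mouth on 5 days, from 3 months of age) stands in the labels of both libraries, whose titles also carry the mark 6M without explanation. Cells were sorted as positive for Vcam1 and negative for CD31, CD45 and Sca1, and RNA was taken without culture.

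Cadherins are transmembrane proteins that bind cadherins of the neighbouring cell in the presence of calcium. Beta-catenin and p120-catenin bind the cytoplasmic tail of a classical cadherin, and alpha-catenin links beta-catenin to actin. In muscle, M-cadherin and N-cadherin lie where the stem cell touches its myofibre, and beta-catenin also carries the canonical Wnt signal to the nucleus.

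The libraries held 36636680 (WT) and 43699831 (dKO) reads. Counts of a gene's rows were summed and scaled by the trimmed mean of M values (TMM) to counts per mega-read of library size (CPM), and the log2 ratio is that of dKO CPM + 1 over WT CPM + 1. With 1 library a group no test was possible, so each difference compares these libraries, has no replicate check, and carries 95% intervals that cover counting error only. A gene was called 2-fold apart when its log2 ratio was 1 or more, or −1 or less. By this rule, 1.92% of 14885 measured genes were higher in dKO and 4.3% lower. That split moved with the scaling: 69.1% of the called genes were lower with TMM, and 88.9% with library totals. Over all measured genes the log2 ratio had a median of −0.02, or −0.24 under library totals. Muscle stem cell markers were present (12 of 12 measured, with a median log2 ratio of −0.01). Pax7 had 22335 and 12620 counts and Vcam1 23795 and 42383. Markers of the cells sorted away were also detected in both libraries and were lower in dKO: Pecam1 (CD31) had 4745 and 1673 counts, Ptprc (CD45) 200 and 17, and Ly6a (Sca1) 2316 and 386. Esr2 had 71 and 45 counts, but which part was deleted is not stated in the labels, so its reads check nothing.

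None of the 8 cadherin and catenin genes was 2-fold apart between the libraries, against 6.22% of the measured genes. None was 1.5-fold apart either, where 22.1% of the measured genes were. The 6 members with at least 1000 counts can be set beside the 6322 genes of that abundance, of which 5.36% were 2-fold and 20.7% 1.5-fold apart. Member log2 ratios ran from −0.30 for Cdh11 to 0.38 for Ctnnb1, with a median of 0.25, 6 above 0 (Cdh2 only at 0.0019) and 2 below. Among all measured genes 47.6% were above 0. Of the 6322 genes with at least 1000 counts, 3917 were above 0, and their median was 0.13.

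The most abundant cadherin was Cdh15, which encodes M-cadherin, the cadherin that marks the muscle stem cell (Entrez ID 12555, a protein-coding gene at 122848374 to 122867397 of chromosome 8, GRCm38). It had 20113 counts in WT and 19438 in dKO, or 503 and 486 CPM. With TMM those levels were almost equal: the dKO to WT ratio was 0.966 (95% interval 0.947 to 0.985) and the log2 ratio −0.05, smaller in size than that of all but 8.61% of the measured genes. Myod1, the gene of a transcription factor that drives myogenic commitment, chosen with its value known, was 3.13-fold higher in dKO (3.03 to 3.23), and Pax7 was 1.77-fold lower (1.73 to 1.81). The log2 ratio of Cdh15 was −0.30 with library totals alone and −0.44 with a cubic trend on abundance and transcript length removed over all genes, so it was below 0 in each case and within 1.5-fold.

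The 250 bases before the Cdh15 start are shown because MyoD-family factors and the Snail and Zeb repressors of cadherin genes are all known to bind E-boxes. Capitals mark each match to the E-box letters CANNTG, a pattern that reads the same on both strands. The sequences are from RefSeq on GRCm38.p6, which held windows for 3 of the 8 members.
Cdh15, chr8:122848124-122848373, plus strand: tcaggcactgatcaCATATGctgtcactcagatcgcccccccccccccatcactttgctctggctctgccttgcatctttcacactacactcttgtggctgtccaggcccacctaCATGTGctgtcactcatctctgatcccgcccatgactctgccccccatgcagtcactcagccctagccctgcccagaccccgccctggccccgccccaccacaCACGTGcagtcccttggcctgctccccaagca
The window held 3 E-box matches, CATATG at −236, CATGTG at −135 and CACGTG at −32, counted to the left base of the match with −1 next to the start. No CAGCTG was in the window. Over 32851 windows of the same length, 66.2% held at least 1 CANNTG and 13.0% held CAGCTG, and 87.8% had fewer CANNTG matches than Cdh15. The window had 5 CG steps (median of all windows 6), 1 of them inside CACGTG. A match describes letters only and says nothing of binding, nor of which of the named factors could bind it.

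Cdh13, which encodes T-cadherin, was next in abundance among the cadherins (Entrez ID 12554, chromosome 8, 118140017 to 119324929). T-cadherin is held in the membrane by a lipid anchor, lacks the tail that binds catenins, and is known as a receptor for adiponectin. It had 9596 counts in WT and 12042 in dKO, or 239.9 and 300.9 CPM. The dKO library was higher by 1.25-fold (1.22 to 1.29), a log2 ratio of 0.33, and 51.6% of the measured genes had a smaller one in size. It was 0.07 with library totals alone and 0.07 after removal of the trend. Vascular cells are known to express Cdh13 as well. Endothelial markers were lower in dKO, with 9 of 12 past 2-fold, 12 of 12 below 0 and a summed level of 685 CPM in WT and 342 CPM in dKO. Mural and smooth muscle markers had 3 of 8 past 2-fold lower, 8 of 8 below 0, and sums of 1354 and 879 CPM. Per transcript length, as CPM per kilobase, Cdh13 was at 61.3 in WT and 76.9 in dKO, and Cdh5, the endothelial cadherin gene, at 22.1 and 7.16. The part of vascular RNA in the Cdh13 values was not tested. In such sorted populations, fewer cells of a type and less RNA per cell cannot be told apart.

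The other 3 cadherins were far less abundant. Cdh4 encodes R-cadherin, a classical cadherin named for the retina (chromosome 2, 179442423 to 179899377). It had 1088 counts in WT and 1331 in dKO, which is 1.22-fold higher in dKO (1.13 to 1.33). Its log2 ratio of 0.28 was 0.04 with library totals alone and 0.44 after removal of the trend. Its rows were unequal: the row of 6390 bases held 1087 and 1324 counts, and the row of 1399 bases 1 and 7.

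Cdh2, the gene of N-cadherin, had 562 counts in WT and 563 in dKO (chromosome 18, 16588877 to 16809246). That is 14.0 and 14.1 CPM, with a log2 ratio of 0.0019 and a 95% interval of the CPM ratio from 0.889 to 1.13. N-cadherin is the other cadherin known at the contact of stem cell and fibre, and with TMM neither library held more of its RNA beyond counting error. The log2 ratio was −0.24 with library totals alone and 0.21 after removal of the trend, so it has no fixed direction. The part of RNA from other cell types in the Cdh2 values was not tested.

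Cdh11 encodes cadherin-11, a cadherin of mesenchymal cells such as fibroblasts and osteoblasts (chromosome 8, 102632095 to 102785493). It was the least abundant member, with 417 counts in WT and 331 in dKO. It was 1.26-fold lower in dKO (1.09 to 1.46), a log2 ratio of −0.30 (−0.53 under library totals, −0.03 with the trend removed). The value with the trend removed is near 0, so no direction can be read from it. Fibro-adipogenic progenitor markers were also lower, with 8 of 12 past 2-fold, 11 of 12 below 0 and a median log2 ratio of −1.27. Their summed level was 5357 CPM in WT and 4134 CPM in dKO, and none of the list's genes was at 0 in either library. Pdgfra, the defining marker of these progenitors, had 1177 and 498 counts. Its log2 ratio was −1.18 by the sum of its 5 rows and −0.26 by its most abundant row alone. The median of the tendon cell markers was −0.78, 5 of 6 were below 0, and Tnmd, the tendon marker tenomodulin, had 1511 and 931 counts. The part of stromal RNA in the Cdh11 values was not tested.

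All 3 catenin genes were higher in dKO by similar amounts under TMM, though under library totals Ctnna1 was not and Ctnnd1 was near 0. Ctnnb1, the beta-catenin gene (Entrez ID 12387, chromosome 9, 120933400 to 120960507), had 20488 counts in WT and 26683 in dKO, or 512 and 667 CPM. It was 1.30-fold higher in dKO (1.28 to 1.33) with a log2 ratio of 0.38, the highest of the 8, and 58.7% of the measured genes had a smaller one in size. Of its reads, the row of 3623 bases held 20443 in WT and 26636 in dKO, and the row of 3423 bases 45 and 47. In the GENCODE M21 annotation, 14.6% of the Ctnnb1 exon bases lie under exons of Ulk4 on the other strand. Ulk4, a kinase gene mentioned because of this overlap, had 47 and 113 counts, few beside those of Ctnnb1.

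Ctnna1 encodes alpha-catenin (Entrez ID 12385, chromosome 18, 35118902 to 35254776), the link to actin. The WT library held 12232 of its reads and the dKO library 14340, which are 306 and 358 CPM. The dKO value was 1.17-fold higher (1.14 to 1.20). The log2 ratio of 0.23 turned to −0.02 under library totals and to −0.07 with the trend removed, so no direction can be read for it. Those alternatives took Ctnnb1 to 0.13 and 0.02 and Ctnnd1 to 0.02 and 0.0034. No direction can be read for Ctnnd1 either, nor for Ctnnb1 after removal of the trend, since these values are near 0.

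Ctnnd1 encodes p120-catenin, which binds the cadherin tail near the membrane and keeps cadherins from being taken up and degraded (Entrez ID 12388, chromosome 2, 84587096 to 84658977). Its 5 rows summed to 16614 counts in WT and 20026 in dKO, or 415 and 500.4 CPM. The sum was 1.20-fold higher in dKO (1.18 to 1.23), a log2 ratio of 0.27.

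The rows of Ctnnd1 were less alike than their sum. The row of 5046 bases held most reads, 12064 in WT and 15484 in dKO, which is 72.6% (exact binomial 95% interval 71.9 to 73.3) and 77.3% (76.7 to 77.9) of the gene. The row of 5357 bases went the other way, with 2314 and 1194 counts, or 13.9% (13.4 to 14.5) and 5.96% (5.64 to 6.30), and was 1.94-fold lower in dKO (1.81 to 2.08). In contrast, the row of 5475 bases had 143 counts in WT and 1389 in dKO, or 0.861% (0.726 to 1.01) and 6.94% (6.59 to 7.30), and was 9.71-fold higher in dKO (8.17 to 11.6). The rows of 5047 and 5294 bases had 1594 and 1640, and 499 and 319 counts. Row differences of 2-fold were common in the table: 27.1% of 11522 measured rows of genes with several rows were 2-fold apart, against 6.22% of the gene sums. How many rows were as far apart as that of 5475 bases was not counted. The largest shift of a row share in Ctnnd1, that of the row of 5357 bases, was 7.97 percentage points. Of 2173 genes with several rows and at least 1000 counts in each library, 46.5% had one as large. The median of such genes was 7.2 percentage points. Leaving out 1 row at a time put the log2 ratio of the gene between −0.0030 (without the row of 5046 bases) and 0.40 (without that of 5357). How reads shared by several transcripts were counted is not stated in the labels. Also, 61.2% of the Ctnnd1 exon bases lie in exons of a GENCODE gene, Gm28635, on the same strand.

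**Figure D1:**
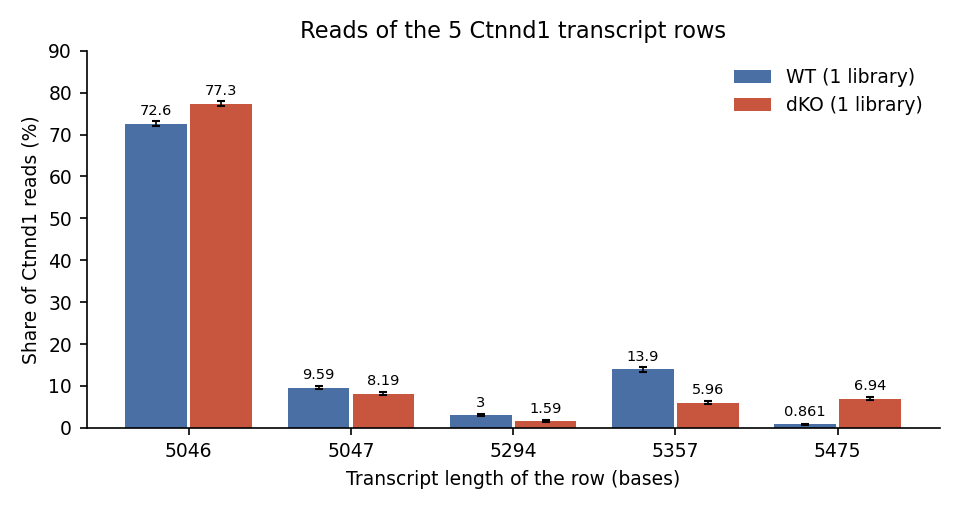
Share of the Ctnnd1 reads (percent, linear axis from 0) in each of its 5 transcript rows, named by transcript length in bases, for the WT and the dKO library, with exact binomial 95% intervals for counting error. The row of 5475 bases goes from 0.861% to 6.94% and that of 5357 bases from 13.9% to 5.96%, while the row of 5046 bases holds most reads in both libraries.

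RefSeq lists 2 start sites for Ctnnd1 and 2 for Ctnnb1. Both Ctnnd1 windows are shown beside that of the upstream Ctnnb1 start to let the start regions of the catenins be compared. The rows carry a length and no transcript identifier, so none was assigned to a start.
Ctnnd1, chr2:84658978-84659227, minus strand: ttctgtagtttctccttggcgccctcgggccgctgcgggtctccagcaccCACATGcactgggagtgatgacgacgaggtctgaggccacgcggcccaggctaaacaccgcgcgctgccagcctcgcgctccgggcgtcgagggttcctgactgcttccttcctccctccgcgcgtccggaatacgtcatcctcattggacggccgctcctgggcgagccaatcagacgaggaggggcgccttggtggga
Ctnnd1, chr2:84650741-84650990, minus strand: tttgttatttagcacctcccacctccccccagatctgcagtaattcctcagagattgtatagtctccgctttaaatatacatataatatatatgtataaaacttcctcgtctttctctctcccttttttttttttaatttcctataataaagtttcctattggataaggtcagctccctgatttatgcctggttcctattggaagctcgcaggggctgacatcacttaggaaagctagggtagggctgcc
Ctnnb1, chr9:120933150-120933399, plus strand: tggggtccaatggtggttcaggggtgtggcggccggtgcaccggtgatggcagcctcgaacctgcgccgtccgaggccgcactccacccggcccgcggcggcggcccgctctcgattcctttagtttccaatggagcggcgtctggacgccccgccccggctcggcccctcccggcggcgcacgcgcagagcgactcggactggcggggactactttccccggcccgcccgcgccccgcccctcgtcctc
The outer Ctnnd1 window had 26 CG steps, more than 90.4% of all windows, and 1 E-box match, CACATG at −200. The inner one had 3 CG steps, and a GC content of 40.0% against 66.8% in the outer. The Ctnnb1 window shown had 35 CG steps, more than 97.0% of all windows, and the window of the downstream start (120933328 to 120933577), which overlaps it and is not shown, had 43, more than 99.3%. Neither Ctnnb1 window nor the inner Ctnnd1 window held CANNTG.

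Levels can be compared between genes only per transcript length, as CPM per kilobase of transcript (RPKM) computed from the row lengths. In WT, Cdh15 was at 177 RPKM (174 to 179), Ctnnb1 at 141 (139 to 143), Ctnna1 at 83.2 (81.7 to 84.7), Ctnnd1 at 81.5 (80.2 to 82.7) and Cdh13 at 61.3 (60.1 to 62.5). Well below these came Cdh4 at 4.27 RPKM (4.02 to 4.53), Cdh2 at 2.90 (2.67 to 3.15) and Cdh11 at 2.04 (1.85 to 2.24). In dKO, Ctnnb1 was at 184 RPKM (182 to 186) and Cdh15 at 171 (168 to 173), so these 2 changed places at the top. Ctnnd1 was then at 98.2 RPKM (96.9 to 99.6), Ctnna1 at 97.5 (95.9 to 99.1), Cdh13 at 76.9 (75.5 to 78.3), Cdh4 at 5.30 (5.02 to 5.60), Cdh2 at 2.90 (2.67 to 3.16) and Cdh11 at 1.62 (1.45 to 1.80). The intervals of Ctnna1 and Ctnnd1 overlapped in both libraries, so their order cannot be told from counting error, and no other neighbours in the order overlapped.

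**Figure D2:**
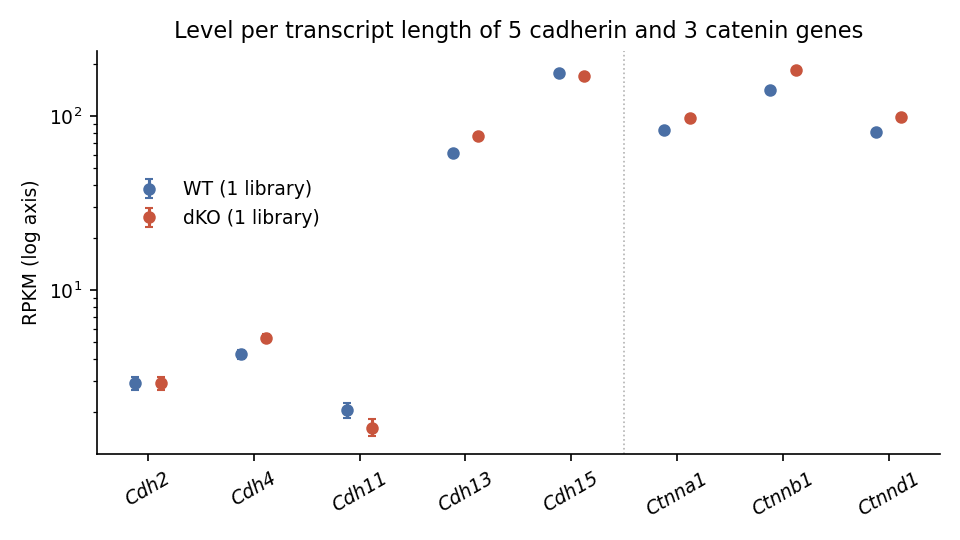
Level of each member per transcript length (RPKM, log axis) in the WT and the dKO library, with exact Poisson 95% intervals for counting error, which are smaller than the points for abundant genes. Cdh15, Cdh13 and the 3 catenins lie above 60 RPKM in both libraries and Cdh2, Cdh4 and Cdh11 below 6.

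The proportions among members differed between the libraries by more than counting error for several pairs. The Cdh15 level per length was 1.25 times that of Ctnnb1 in WT (1.23 to 1.28) and 0.928 times in dKO (0.911 to 0.946), the largest move of the 11 pairs compared. Not every pair of members was compared, and Cdh11 was set only against Cdh15 and Cdh2. The Cdh15 level per length was 2.88 times that of Cdh13 in WT (2.82 to 2.96) and 2.22 times in dKO (2.17 to 2.27). Cdh15 made up 71.5% of the summed RPKM of the 5 cadherins in WT and 66.3% in dKO, Cdh13 24.8% and 29.9%, and each of the other 3 at most 2.06%. Among the catenins, Ctnnb1 was 1.70 times Ctnna1 in WT (1.66 to 1.74) and 1.89 times in dKO (1.85 to 1.93), while Ctnna1 and Ctnnd1 stayed near equal (ratios of 1.02 and 0.993). The summed RPKM of the 5 cadherins was 247 in WT and 258 in dKO, and that of the 3 catenins 306 and 379.7. The ratios between members of a library do not depend on the scaling, but the sums do: dKO over WT was 1.04 for the cadherins and 1.24 for the catenins with TMM, and 0.873 and 1.04 with library totals.

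**Figure D3:**
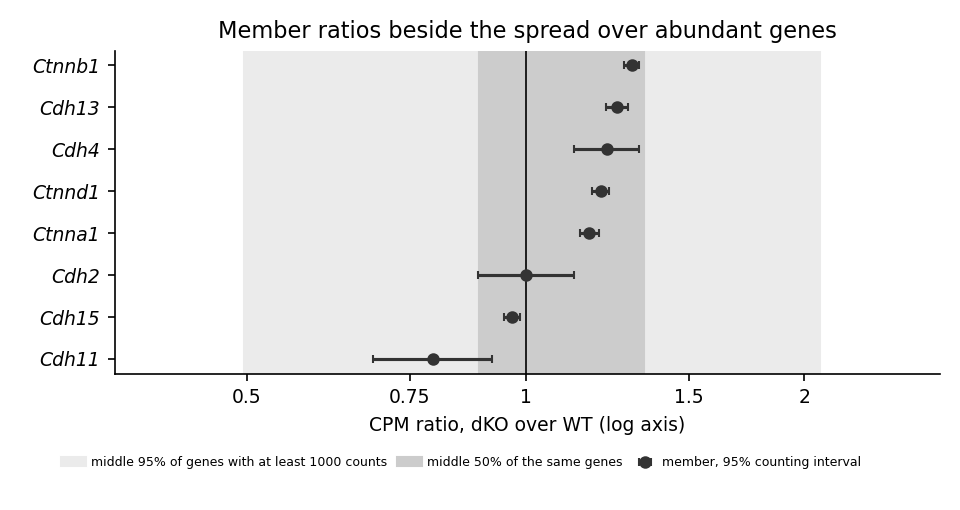
CPM ratio of dKO over WT for each member (points, log axis, no pseudocount) with exact conditional binomial 95% intervals for counting error, over bands that hold the middle 95% (light) and the middle 50% (dark) of the 6322 abundant genes. All members lie inside the light band of 0.496 to 2.08. The dark band runs from 0.891 to 1.34, and over all measured genes, which are not drawn, from 0.732 to 1.27, so that Cdh11 (0.793, with under 1000 counts) is outside the former and Ctnnb1 (1.30) outside the latter.

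The wider cadherin family placed the members in order. Of 23 type I, type II and related cadherin genes with rows, Cdh15 and Cdh13 had the highest RPKM in both libraries, and Cdh4, Cdh2 and Cdh11 came at places 5, 6 and 7 in WT. Between them lay Cdh5 (VE-cadherin, 22.1 RPKM in WT and 7.16 in dKO) and Cdh19, a cadherin of glial cells (7.64 and 9.51 RPKM). Cdh5 was 3.08-fold lower in dKO (2.88 to 3.30), whereas Cdh19 had a log2 ratio of 0.30. Glial markers, Cdh19 among them, had a median log2 ratio of 0.25 (0.00095 under library totals), with 4 of 7 above 0. Of the 18 cadherin genes that are not members, 10 were measured, 1 was lower by 2-fold and 0 were higher. Cdh1, the epithelial E-cadherin gene, chosen with its value known, had 70 and 48 counts. Desmosomal cadherins were barely detected, with 2 of 7 measured: Dsg2 (0 and 30 counts) and Dsc3 (0 and 11).

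Protocadherins and the large cadherins of the Fat, Dachsous, Celsr and calsyntenin groups had 21 of 24 genes measured, with 1 higher and 1 lower by 2-fold and a median log2 ratio of −0.33. Pcdh12, a protocadherin of vascular endothelium, had 128 and 27 counts and was 4.74-fold lower in dKO (3.11 to 7.47). Pcdh15, known from the tip links of hair cells, had 24 and 98 counts and was 4.08-fold higher (2.59 to 6.67). The remaining catenins and their armadillo relatives had 9 of 11 measured and 0 past 2-fold, with a median of 0.08. Ctnna2, scarce and chosen with its value known, had 6 and 26 counts and a dKO to WT fold of 4.33 (1.74 to 12.9). The pseudocount kept its log2 ratio at 0.52. Jup, or plakoglobin, which can take the place of beta-catenin at cadherins, had 14769 and 15595 counts (log2 ratio 0.08), and the plakophilin gene Pkp4 3011 and 3856 (0.35). At 73.7 and 77.8 RPKM, plakoglobin RNA was of the order of Ctnna1 and Ctnnd1.

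The proteins that tie the junction to actin, with the nectins, had 16 of 16 measured, 1 lower by 2-fold, 0 higher and a median of 0.15. Actn1, an alpha-actinin that crosslinks actin, was 2.93-fold lower in dKO (2.79 to 3.08; 6031 and 2057 counts). Its paralogue Actn4 had a log2 ratio of 0.11 and vinculin, Vcl, one of 0.18. Genes of cadherin cleavage and junction signalling had 16 of 17 measured, 0 past 2-fold and a median of 0.03. The small GTPase genes Cdc42 (12668 and 18449 counts) and Rhoa (11516 and 13367), which shape the actin at junctions, had log2 ratios of 0.54 and 0.21. The repressors of cadherin genes had 6 of 6 measured, 0 past 2-fold, 1 above 0, 5 below and a median of −0.14. The values were −0.10 for Zeb1 and 0.27 for Zeb2. The others are given with their values known. Snai1 was at −0.66 (869 and 534 counts), Snai2 at −0.18 and Twist1 at −0.04. Twist2, with 90 and 33 counts, was at −0.83, and 2.73-fold lower in dKO (1.81 to 4.20) without the pseudocount.

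Beta-catenin that is not bound to cadherin is degraded after phosphorylation on a scaffold of Apc and Axin. The list held 16 genes that carry out that degradation or regulate it in either direction, the Dvl and Tnks genes among them. Of these, 1 was lower by 2-fold, 0 higher and 11 above 0, with a median log2 ratio of 0.24. The median therefore does not describe the degradation machinery alone. Amer1, which binds Apc at the membrane, was 2.41-fold lower in dKO (2.12 to 2.74; 813 and 338 counts). The casein kinase genes Csnk1d (24659 and 42691 counts) and Csnk1a1 (8881 and 16416) had log2 ratios of 0.79 and 0.88. Nuclear partners of beta-catenin had 12 of 13 measured, 0 past 2-fold and a median of −0.0015, with values of −0.04 and 0.59 for the corepressor genes Tle3 and Tle4.

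Known target genes of beta-catenin had 12 of 15 measured, 2 higher by 2-fold, 0 lower and a median of −0.04. Axin2, the feedback inhibitor most often read as the output of this pathway, was chosen for that role with its value known. It had 467 counts in WT, 402 in dKO and −0.20 as log2 ratio. The members past 2-fold were Lgr5, a receptor for R-spondins, with 2 counts in WT and 70 in dKO (35.0-fold, 9.33 to 295), and Myc, a growth regulator under many other controls (2.05-fold, 2.01 to 2.09; log2 ratio 0.78 under library totals). The log2 ratio of Ctnnb1 RNA itself was 0.38 (0.13 under library totals, 0.02 with the trend removed). Of the measured targets, 5 were above 0 and 7 below. The lowest was Nkd1, given with its value known, at −0.77 (390 and 212 counts). A link between Ctnnb1 RNA and its targets was not tested. Under library totals, the list medians were −0.18 for the other catenins, −0.11 for actin linkers and nectins, −0.22 for cleavage and signalling, and −0.02 for beta-catenin degradation, so none of these lists keeps a median above 0 there.

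**Figure D4:**
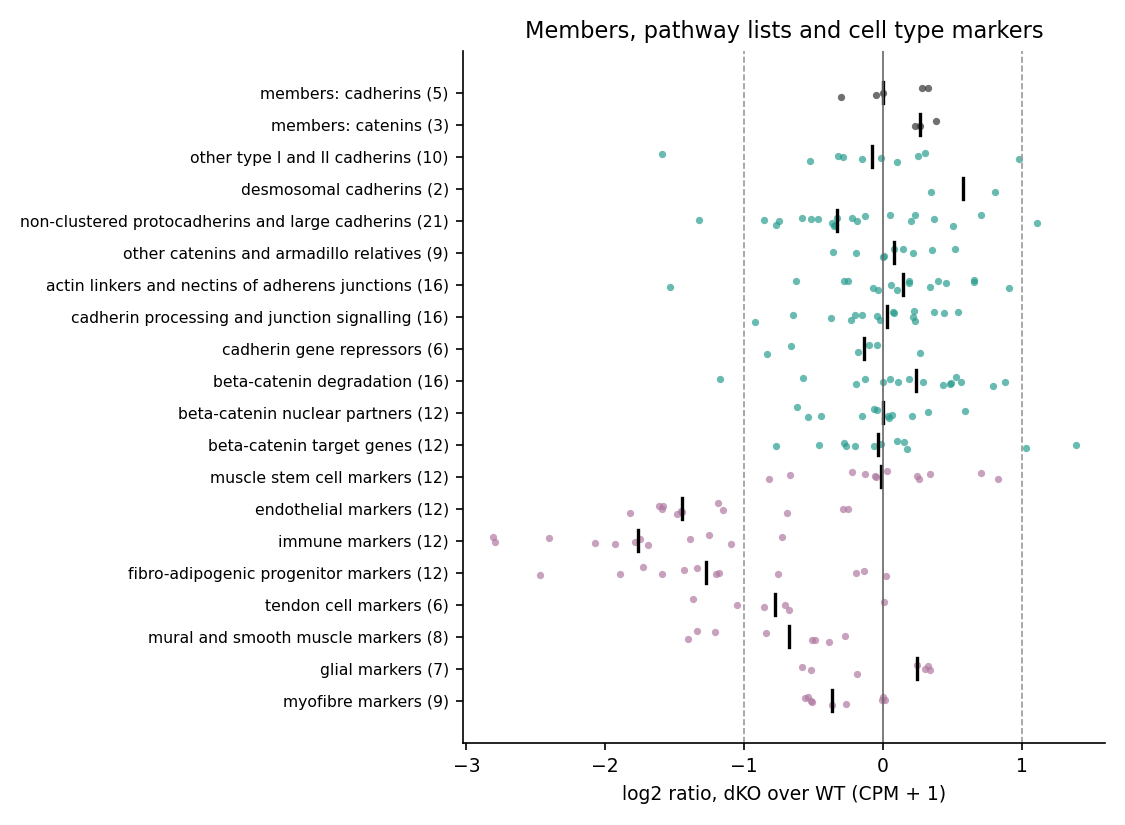
Log2 ratio of dKO over WT (CPM + 1) for each measured gene (points) of the members, 10 pathway lists and 8 cell type marker lists, with the list median as a black bar, 0 as a solid line, the 2-fold lines dashed, and the number of measured genes in brackets. All 8 members lie between −0.30 and 0.38, while the endothelial, immune and progenitor marker medians lie below −1.

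**Figure D5:**
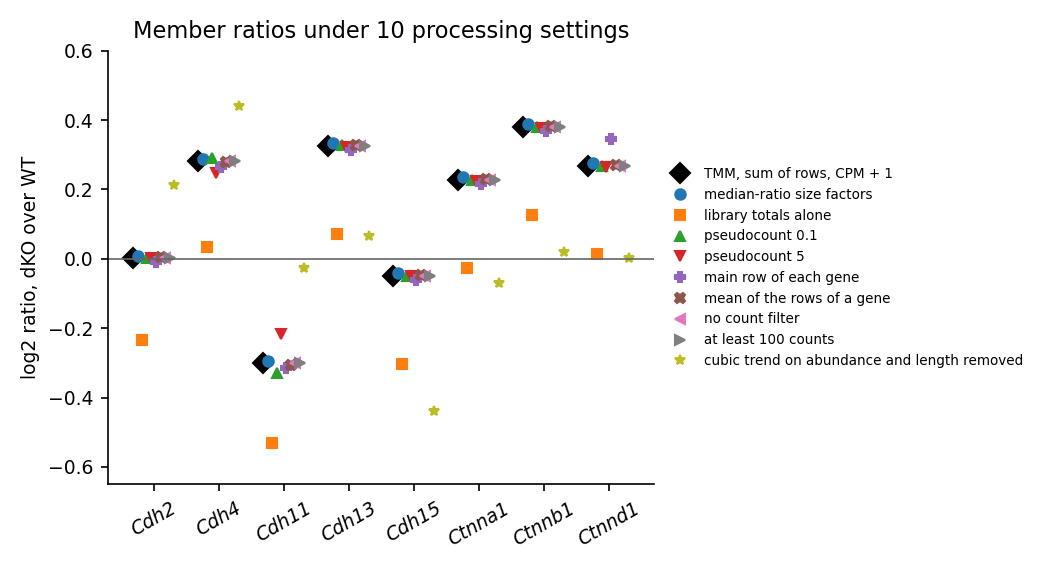
Log2 ratio of dKO over WT of each member under the reported setting (black diamonds) and 9 alternatives (coloured symbols). Library totals move each member down by about the shift of all genes, and removal of a trend on abundance and length takes Cdh15 from −0.05 to −0.44 and Cdh4 from 0.28 to 0.44.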

How the data were processed

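Per the file headers, the deposited values are read counts, with a transcript length and an Entrez gene ID in each of 36780 rows. The submitters' processing notes name TopHat2 2.0.9, bedtools, edgeR and mm10, with no role or order. Counting rule, strand and annotation are not stated there. Of 24532 gene IDs, 24462 were matched to a symbol (RefSeq genes, GRCm38.p6). No row lacked an ID.

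Rows were summed per gene. TMM factors (edgeR 4.0.16, limma 3.58.1, R 4.3.3) were 1.09 for WT and 0.916 for dKO. Folds are CPM ratios without pseudocount, with exact conditional binomial 95% intervals, and counts and RPKM have exact Poisson ones. Calls of 2-fold use the log2 ratio with CPM + 1, so a scarce gene can have a larger fold and not be called. Amplified reads are not independent molecules. The steps were tested on simulated counts with Poisson counting error only. That checks the code, and not the trends or the replicate spread of real libraries.

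The members and lists were chosen with earlier results of these data known. Named genes were all members, up to 4 genes past 2-fold per pathway list or, with fewer than 2, also its 2 most abundant, and set marker genes; others are marked as chosen after their values were seen. Alternatives were other scalings (DESeq2 1.42.0), pseudocounts, row rules, count floors and fold rules, and removal of a cubic trend on abundance and length. Dchs2 had no rows and Cblll1 no symbol match, so neither was analysed here. A few other genes are not reported here. No gene was sought for a like pattern, since 2 libraries give 1 ratio.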

Additional observations from a re-analysis of the deposited data

How the results depend on the processing

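No member was 2-fold apart under the 7 alternatives that could move a member's ratio, and none passed a 1.5-fold rule; the 4-fold rule and the count floors could not change this. The median log2 ratio of the members was −0.0049 with library totals and 0.012 after removal of the trend on abundance and length, and between 0.24 and 0.26 under the other alternatives. Of 56 member values under those 7 alternatives, 39 moved by less than the half-width of their counting interval. Ctnna1 and Cdh2 changed sign under some settings (Cdh2 from −0.24 under library totals to 0.21 with the trend removed). The other 6 members did not, though Ctnnd1, Ctnnb1 and Cdh11 came to 0.0034, 0.02 and −0.03 with the trend removed. Genes 2-fold higher and lower numbered 286 and 640, but 130 and 1040 under library totals, 698 and 1653 with a pseudocount of 0.1, and 154 and 187 with one of 5. They were 1336 and 1955 by a 1.5-fold rule and 25 and 56 by a 4-fold rule. By the main row of a gene they were 474 and 936, and with the trend removed 306 and 415. The share of lower genes was 69.1%, and 88.9% under library totals, 54.8% with a pseudocount of 5 and 57.6% with the trend removed. The cause of these moves was not tested. No paired analysis was possible because each group has 1 library, and for the same reason no library could be left out. Depth limits Cdh11 and Cdh2 most, whose ratios have the widest intervals.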

Other observations

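A few further genes of the lists, chosen after their values were seen, were not described above. Cdh10, a type II cadherin gene, had 31 counts in WT and 100 in dKO, with a log2 ratio of 0.98, just inside the 2-fold line because of the pseudocount. Pcdh18, a protocadherin gene with 3874 and 6366 counts, had a log2 ratio of 0.71. The nectin genes, whose products start cell contacts beside cadherins, were all above 0: Nectin1 had a log2 ratio of 0.46, Nectin2 of 0.66, Nectin3 of 0.40 and the scarce Nectin4 (9 and 22 counts) of 0.34. Under library totals these values were 0.21, 0.41, 0.15 and 0.27. The receptor phosphatase genes Ptprm and Ptprk, whose products dephosphorylate junction proteins, had values of −0.92 and −0.65, while Ptprf had one of 0.37.

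Row choice mattered for some relatives of the members. Arvcf, a p120-catenin relative with 6 rows, gave −0.0022 by the sum of rows and 0.99 by its main row as log2 ratio. Enah, an actin regulator with 4 rows, had 0.19 by the sum and 2.35 by its main row.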
